A study of Mus musculus with 2 samples.

Results

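The genes described here encode the machinery that copies DNA: 42 protein-coding genes, taken from a list by symbol, of 21938 annotated in the mouse. All 42 symbols were found once in the GENCODE annotation of mm10. They were divided by role into 12 genes of the replicative helicase, 8 of the origin, 9 of the polymerases, 6 of the clamp and its loader, and 7 for single-stranded DNA, strand completion and deoxynucleotide supply. Chromatin accessibility at these genes was read from DNase-seq, in which the enzyme DNase I cuts open DNA in nuclei, in the thymus. The mice were females of strain B6CASTF1/J, an F1 hybrid, and 10 days old. The 2 libraries are biological replicates 1 and 2 of 1 group, without a treatment or a control. The labels number the females separately but give 1 donor identifier for both, and the spread between replicates is that between these 2 libraries.

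Most cells of the young thymus are thymocytes, the developing T cells, many of which divide. Before S phase the origin recognition complex (ORC), with CDC6 and CDT1, loads the ring of MCM2 to MCM7 on DNA. CDC45 and the GINS complex join it to form the working helicase. Polymerase alpha with primase starts each strand, polymerase epsilon extends the leading and polymerase delta the lagging strand, and the sliding clamp PCNA, loaded by the RFC complex, holds a polymerase to DNA. Many of these genes are known targets of the E2F transcription factors, which the retinoblastoma protein restrains outside the dividing state. The NF-Y factor binds the CCAAT box, and ETS factors bind a core of GGAA.

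The sequences that carry these letters in open promoters of the helicase group are shown first, from GRCm38 (mm10), each 5′ to 3′ on the strand of the gene. Capitals mark the E2F letters (TTTNNCGC, where each N is C or G), the CCAAT box and the ETS letters (CCGGAAG), each searched on both strands. Matches may overlap. The stretch shown for Mcm5 held a pair of overlapping E2F matches, and that of Mcm6 held 3 matches, with such a pair among them. That of Mcm4 held all 3 kinds of letters. Mcm5 held a further E2F match outside the stretch shown, at -4.5 bp from the start of the gene. The Mcm5 stretch was chr8:75109319-75109419 on the plus strand, that of Mcm6 chr1:128359725-128359824 on the minus strand, and that of Mcm4 chr16:15637450-15637650 on the minus strand.
Mcm5: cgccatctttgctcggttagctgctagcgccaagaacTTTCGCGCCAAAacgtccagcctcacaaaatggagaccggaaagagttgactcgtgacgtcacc
Mcm6: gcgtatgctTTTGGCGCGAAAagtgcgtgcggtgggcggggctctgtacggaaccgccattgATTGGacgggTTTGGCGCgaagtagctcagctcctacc
Mcm4: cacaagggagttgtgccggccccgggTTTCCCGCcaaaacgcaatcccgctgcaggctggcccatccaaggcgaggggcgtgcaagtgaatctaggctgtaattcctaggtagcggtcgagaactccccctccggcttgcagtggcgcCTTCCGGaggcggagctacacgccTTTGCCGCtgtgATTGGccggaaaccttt

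For contrast, the 148 bp that end 3 bp before the start of Pold1, the member with the highest promoter peak, held none of these letters. The 150 bp before the starts of Gins2, the highest of the helicase group by its mean, and of Rrm2 held a CCAAT box and no E2F or ETS letters. They came from chr7:44548850-44548997 (minus strand), chr8:120589305-120589454 (minus strand) and chr12:24708091-24708240 (plus strand).
Pold1: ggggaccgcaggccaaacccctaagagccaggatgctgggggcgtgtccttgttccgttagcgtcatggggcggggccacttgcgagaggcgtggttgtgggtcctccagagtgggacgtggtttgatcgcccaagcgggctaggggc
Gins2: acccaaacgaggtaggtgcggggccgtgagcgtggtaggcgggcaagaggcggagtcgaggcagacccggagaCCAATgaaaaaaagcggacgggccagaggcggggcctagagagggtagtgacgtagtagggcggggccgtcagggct
Rrm2: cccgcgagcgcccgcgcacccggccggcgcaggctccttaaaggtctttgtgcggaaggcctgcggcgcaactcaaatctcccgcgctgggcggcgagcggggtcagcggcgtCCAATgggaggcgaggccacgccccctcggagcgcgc

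Replicate 1 had 132737 peaks and replicate 2 had 69798, with median deposited heights of 0.625 and 0.828. Every height is therefore given over the median peak height of its library, as a multiple of that median. Read numbers are not analysed here, so no counting interval is given. The tissue label was checked against marker genes. All 8 thymocyte markers, Cd3e, Cd3d, Cd4, Cd8a, Lck, Rag1, Bcl11b and Tcf7, had a promoter peak, that is one within 500 bp of a start, in both replicates, and none of 4 liver markers had one. Of other cells, 1 of 5 epithelial, 1 of 4 B-cell, 1 of 4 myeloid, 2 of 4 fibroblast, 2 of 3 endothelial and 1 of 4 erythroid markers had one in both replicates. The tissue is a mixture, and the share of a gene's signal that came from each cell type was not tested.

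All 42 replication genes had an open promoter. In both replicates each had at least 1 peak no further than 500 bp from a start. Over all protein-coding genes the share was 63.4% in replicate 1, 57.8% in replicate 2 and 57.2% in both. In the authors' stricter peak file the 42 genes also had one in both replicates, against 53.6% of all genes. Promoters rich in CpG, here those with at least 55% G and C and a CpG ratio of at least 0.6 from 250 bp before to 50 bp after the main start, are open in most tissues. Of the 42 members 28 had such a promoter, as did 8660 of all 21938 genes. Among all CpG-rich genes 88.3% had a peak in both replicates.

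Peaks at the replication genes were high for promoters. Their median height was 12.3 times the library median in replicate 1 and 8.61 times in replicate 2 (mean 10.5 ± 2.63, SD, n = 2). All genes with a promoter peak had medians of 6.88 and 4.92, and CpG-rich genes 8.63 and 6.37. The members stood in the highest 25% of genes with a promoter peak in 22 cases in replicate 1 and 19 in replicate 2, of which 17 were the same genes. They stood in the highest 10% in 10 and 7 cases, and Mcm4, Mcm5, Gins2, Orc4, Pold1, Pold3 and Rpa2 did so in both. Under the median gene lay 8 and 9 members. Those under it in both replicates were Orc2, Orc3, Rfc1, Pola1, Prim1, Pole and Pole2.

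**Figure D1:**
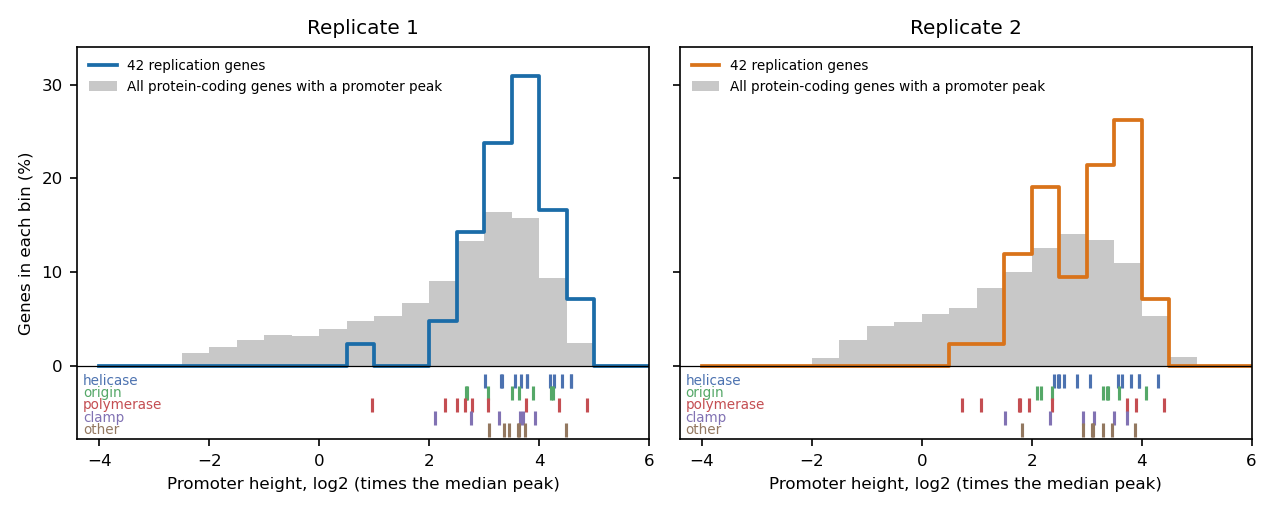
Promoter heights as log2 of the multiple of the library's median peak height (x axis) and the percentage of genes in each bin (y axis). Grey bars are all protein-coding genes with a promoter peak, the line is the 42 replication genes, and ticks below mark each gene by role ("other" holds the 7 genes for single-stranded DNA, strand completion and deoxynucleotides). The replication genes lie to the right of the bulk of genes in both replicates, with medians of 12.3 and 8.61 times against 6.88 and 4.92.

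By role, helicase genes had the highest median promoter height and polymerase genes the lowest in each replicate. The medians were 13.7 and 10.1 for the helicase, 11.8 and 10.1 for the origin, 11.0 and 8.21 for the clamp, and 6.89 and 3.87 for the polymerases (replicates 1 and 2). The remaining 7 genes had medians of 12.3 and 8.71. As means over replicates these were 11.9 ± 2.54, 11.0 ± 1.25, 9.63 ± 2.01, 5.38 ± 2.13 and 10.5 ± 2.53 (SD, n = 2). The replicate values of the helicase, origin and clamp groups overlapped, while both polymerase values lay under both values of each other group. Most genes were higher over the median in replicate 1, so these spreads include a shift between libraries. Over the median promoter height of all genes, the means were 2.02 ± 0.0445 for the helicase and 1.64 ± 0.0442 for the clamp. They were 1.89 ± 0.232 for the origin and 0.895 ± 0.151 for the polymerases (SD, n = 2). The quartile ranges of the genes overlapped between all groups, at 5.69 to 13.5 for the polymerases and 11.4 to 19.8 for the helicase in replicate 1. Genes are not replicates, and no test was run between roles.

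**Figure D2:**
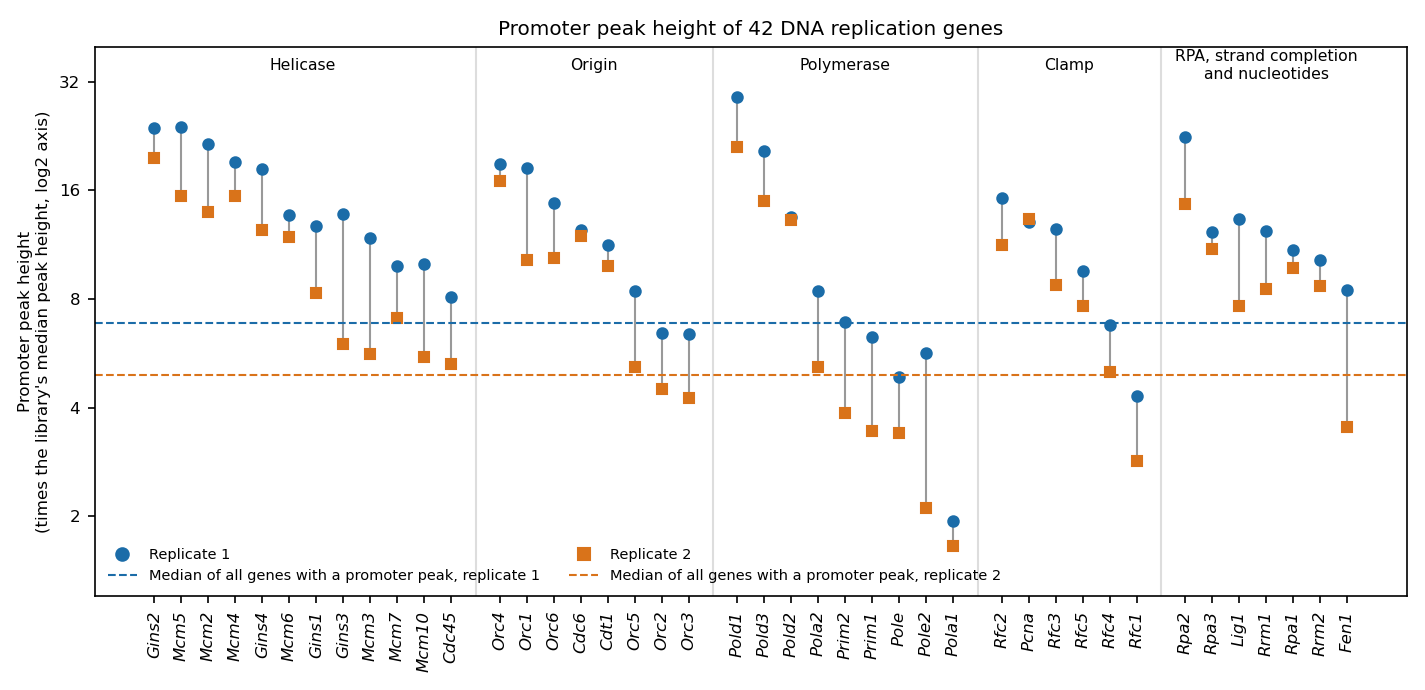
Promoter peak height of each of the 42 genes in replicate 1 (circles) and replicate 2 (squares), as a multiple of the library's median peak height on a log2 axis, grouped by role and ordered by mean height. Dashed lines are the medians of all genes with a promoter peak, 6.88 and 4.92, and 3 polymerase genes (Pold1, Pold3, Pold2) stand above the other 6.

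Within a role, genes are called highest or lowest by the mean of the replicates. In the helicase group the highest promoters were those of Gins2 and Mcm5. Gins2, a subunit of the GINS complex on chromosome 8 (120578633 to 120589304), reached 23.8 times the median in replicate 1 and 19.6 in replicate 2 (21.7 ± 2.95, SD, n = 2). Mcm5, a subunit of the MCM ring on chromosome 8 (75109569 to 75128439), reached 24.0 and 15.5 (19.7 ± 6.01). Both ranked above 92% of genes with a promoter peak in either replicate. The lowest of the group were Cdc45, which joins the ring to activate it, at 8.11 and 5.29 (6.70 ± 2.00), and Mcm10, which acts in helicase activation, at 10.0 and 5.54 (7.78 ± 3.17). Even these lay above the median gene in both replicates, so all 12 helicase genes did. The 6 genes of the MCM ring spanned 9.90 to 24.0 and 5.62 to 15.5, a ratio of 2.42 and 2.75 between the highest and the lowest. The other members of the ring were Mcm2 (21.5 and 13.9), Mcm4 (19.2 and 15.4), Mcm6 (13.6 and 11.9), Mcm3 (11.8 and 5.62) and Mcm7 (9.90 and 7.10). The 4 genes of GINS spanned 12.7 to 23.8 and 5.99 to 19.6.

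In the origin group the 6 ORC genes spanned a wider range than the 2 loaders, Cdc6 and Cdt1. A range widens with the number of genes, so the 2 spans do not show which set differs more. Orc4 had the highest promoter, on chromosome 2 (48902824 to 48950277), at 19.0 and 17.0 times the median (18.0 ± 1.39, SD, n = 2). Orc1, the largest subunit of ORC, followed at 18.5 and 10.3 (14.4 ± 5.82). Orc3 was lowest at 6.40 and 4.25 (5.32 ± 1.52), next to Orc2 at 6.43 and 4.50 (5.46 ± 1.36). The last 2 did not differ beyond their spread. From highest to lowest the 6 ORC genes spanned 2.96-fold in replicate 1 and 4.0-fold in replicate 2. Cdc6 stood at 12.4 and 12.0 and Cdt1 at 11.3 and 9.87, a span of 1.10 and 1.21.

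Among the polymerases the 3 genes of polymerase delta stood apart from the other 6. Pold1, the catalytic subunit on chromosome 7 (44532746 to 44548849), had the highest promoter of all members, at 29.1 and 21.1 times the median (25.1 ± 5.62, SD, n = 2), above 98% of genes with a promoter peak in each replicate. Pold3, an accessory subunit, reached 20.5 and 15.0 (17.8 ± 3.94), and Pold2 13.5 and 13.3 (13.4 ± 0.154). The other 6 polymerase genes spanned 1.94 to 8.41 in replicate 1 and 1.66 to 5.20 in replicate 2, with no overlap with polymerase delta. The ratio of the 2 medians was 3.43 and 4.37. This split was made after the values were seen, so it is a description. It also depends on the subunits listed. Of those outside the members, Pold4 stood at 13.75 and 10.1, Pole3 at 12.0 and 10.1 and Pole4 at 16.5 and 13.4. The epsilon genes Pole3 and Pole4 thus stood above the other 6, and Pole4 above Pold2, in both replicates. Without the genes of polymerase delta the group's median was 4.70 ± 1.81.

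The lowest promoter of all members was that of Pola1, the catalytic subunit of polymerase alpha and the only member on the X chromosome (93304767 to 93632155). It stood at 1.94 and 1.66 (1.8 ± 0.203, SD, n = 2), at deposited heights of 1.22 and 1.37. Its partners in the primase complex were Pola2 (8.41 and 5.20), Prim2 (6.89 and 3.87) and Prim1, the catalytic primase (6.29 and 3.44). Of polymerase epsilon, the catalytic gene Pole stood at 4.87 and 3.41 (4.14 ± 1.04). Its subunit Pole2 stood at 5.69 and 2.11 (3.90 ± 2.53), the second lowest mean of the group.

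In the clamp group Rfc2 and Pcna were level. Rfc2, a small subunit of the clamp loader, reached 15.3 and 11.3 (13.3 ± 2.79, SD, n = 2), and Pcna, the sliding clamp on chromosome 2 (132249162 to 132253314), 13.0 and 13.4 (13.2 ± 0.234). Pcna was the only member that was higher over the median in replicate 2. Rfc1, the large subunit of the loader, was lowest at 4.31 and 2.85 (3.58 ± 1.04), under Rfc4 at 6.80 and 5.02 (5.91 ± 1.26). Rfc3 and Rfc5 lay between, at 12.5 and 8.76 and at 9.59 and 7.66. The 5 genes of the loader spanned 3.54-fold and 3.98-fold.

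Of the remaining genes, Rpa2, a subunit of the RPA complex that coats single-stranded DNA, was highest at 22.5 and 14.7 (18.6 ± 5.50, SD, n = 2). Rpa3 followed at 12.3 and 11.0 (11.6 ± 0.889) and Rpa1 stood at 10.9 and 9.77. Fen1, which removes flaps of the lagging strand, was lowest at 8.5 and 3.54 (6.02 ± 3.51). Lig1, which seals the nicks, stood at 13.4 and 7.65. The subunits of ribonucleotide reductase, which makes deoxynucleotides, were close to each other, with Rrm1 at 12.4 and 8.52 and Rrm2 at 10.3 and 8.71 (9.5 ± 1.12).

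The replicates ordered the members alike. Over the 42 genes the log2 heights had a Pearson r of 0.930 and a Spearman rho of 0.928, a description over genes that share both libraries. Over the median, 41 of 42 members were higher in replicate 1, as were 93.3% of the 12547 genes with a promoter peak in both. The deposited heights were higher in replicate 1 for 29 members and in replicate 2 for 13. The largest ratios between replicates were those of Pole2 (2.69), Fen1 (2.40), Gins3 (2.30), Mcm3 (2.11) and Prim1 (1.83), each higher in replicate 1, against a median ratio of 1.47 over all genes and 1.43 over members. Gins3 stood at 13.8 and 5.99 and Mcm3 at 11.8 and 5.62.

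The highest peak did not always lie at the annotated main start. For 3 members it lay over 400 bp away in both replicates. At Lig1 it lay 1458 and 1448 bp after the main start, near a further annotated start, and within 500 bp of the main start only 0 and 53 of 1001 bp had a cut-rate FDR of at most 0.001. The members' median was 951.5 bp in replicate 1 and 752.5 bp in replicate 2. At Cdc6 the highest peak was centred at -420.5 and -410.5 bp from the main start, and at Mcm7 at 472 and 562 bp. In 8 members, these 3 with Cdc45, Gins1, Orc2, Rfc1 and Rrm1, the highest peak was centred in both replicates outside the window searched for letters, from 250 bp before to 50 bp after the main start.

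E2F letters were more frequent in these promoters than in promoters at large. The 8 letters TTTNNCGC occurred from 250 bp before to 50 bp after the main start in 13 of 42 members (31.0%), against 2.89% of all genes and 5.15% of CpG-rich genes. The 28 CpG-rich members held them in 9 cases. By role they occurred in 5 of 12 helicase genes, 4 of 8 origin genes, 3 of 9 polymerase genes, 1 of 6 clamp genes and 0 of 7 remaining genes. The genes were Mcm3, Mcm4, Mcm5, Mcm6 and Gins1, then Cdc6, Cdt1, Orc1 and Orc3, then Pola1, Pole and Pole2, and Rfc3. In the polymerase group the 3 genes with the letters were the 3 with the lowest promoters. Over all members the heights with and without the letters were alike, with medians of 12.4 and 8.76 against 12.3 and 8.52. The share depends on the start chosen: over all annotated starts 22 of 42 members held the letters, against 5.31% of genes, and in RefSeq promoters 15 of the 35 matched members, against 3.32%. The counts by role depend on the letters chosen. The shorter TTNNCGC occurred in 5 of 12 helicase, 5 of 8 origin, 4 of 9 polymerase, 2 of 6 clamp and 4 of 7 remaining genes. Its share was 12.1% of all genes and 22.1% of CpG-rich genes.

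Few of these matches lay in a footprint in both replicates. A footprint is a short stretch that is cut less than its surroundings. A match was counted when it lay inside one after 5 bp were added on each side. This held in both replicates at Mcm3, Mcm5, Gins1 and Orc1, against 0.734% of all genes and 1.43% of CpG-rich genes. It held for 5 members in replicate 1 (Mcm6 in addition) and 8 in replicate 2 (Mcm4, Cdt1, Rfc3 and Pole in addition). The shares in replicates 1 and 2 were 1.00% and 0.985% of all genes, and 1.99% and 1.93% of CpG-rich genes. Without the added 5 bp the count in both replicates was 3 members, since the Orc1 match reached beyond its footprint. Of the 21 matches in members with a peak, 33.3% and 57.1% lay in a footprint, while over all genes with a promoter peak 39.0% and 40.4% did. At Mcm5 the footprint over the overlapping pair of matches had the same bounds in both replicates, chr8:75109351-75109375. The stretches at the other 3 genes, joined over match and footprint, were chr1:20820285-20820301 (minus strand) for Mcm3, chr2:150909576-150909601 (plus strand) for Gins1 and chr4:108579427-108579438 (plus strand) for Orc1. For Gins1 the stretch is the footprint of replicate 2, and that of replicate 1 was wider, at chr2:150909552-150909602. Capitals mark the E2F letters.
Mcm3: cttccgtgGCGGGAAAa
Gins1: ttgagcctaTTTGGCGCCAAAgcgag
Orc1: GCGCGAAAagtt

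CCAAT boxes were most frequent in the helicase group. They occurred in the window of 26 of 42 members (61.9%), against 38.6% of all genes and 35.7% of CpG-rich genes. Of the helicase genes 11 of 12 held one, with Mcm7 the exception, against 3 of 8 origin, 5 of 9 polymerase, 2 of 6 clamp and 5 of 7 remaining genes. Mcm3, Mcm5, Mcm10 and Rpa2 held 3 each. In members 63.0% of the 46 boxes lay in the 100 bp before the start, where 45.9% of all genes' boxes lay. A box lay in a footprint in both replicates in 11 members, 6 of them helicase genes, against 7.65% of all genes and 13.8% of CpG-rich genes.

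ETS letters followed another pattern, with similar shares in each role. CCGGAAG occurred in 18 of 42 members (42.9%), against 11.2% of all genes and 19.1% of CpG-rich genes. The counts were 5 of 12 helicase, 4 of 8 origin, 3 of 9 polymerase, 3 of 6 clamp and 3 of 7 remaining genes. They lay in a footprint in both replicates in 14 of all 42 members, against 5.29% of all genes and 9.94% of CpG-rich genes. Among these were Mcm4, Mcm10, Gins3, Gins4, Orc1, Orc3, Orc4, Pold3 and Fen1. The GC box GGGCGG occurred in 29 members (69.0%), against 45.3% of all genes and 80.1% of CpG-rich genes, and lay in a footprint in both replicates in 25, against 24.7% of all genes and 50.6% of CpG-rich genes.

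Counting the E2F, CCAAT and ETS letters together, 37 of 42 members held at least 1 kind, against 47.2% of all genes, and 16 held at least 2, against 5.22%. Mcm4, Orc1, Rfc3 and Pola1 held all 3, against 0.214% of all genes. Pcna, Rfc2, Pola2, Pold1 and Lig1 held none, although Pold1, Rfc2 and Pcna were among the highest promoters of their groups. Further letters were counted in the same window. The cell cycle homology region letters TTTGAA occurred in 2 of 42 windows (Mcm2 and Cdc45), against 15.6% of all genes and 7.17% of CpG-rich genes, and TATAAA in 2 (Mcm7 and Cdc45), against 12.5% and 3.86%. The E-box CACGTG occurred in 7, against 7.76% and 11.6%, and lay in a footprint in both replicates at Gins4, Orc4 and Pole, against 1.91% of all genes and 3.76% of CpG-rich genes. Mcm5 and Orc5 held the cyclic AMP response letters TGACGTCA, against 2.51% of all genes and 3.97% of CpG-rich genes. In both they lay in a footprint in both replicates, against 1.77% and 3.44%, so that this count of 2 members is near the share of CpG-rich genes. Such a match is a description of letters in a window and not a measured binding site.

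**Figure D3:**
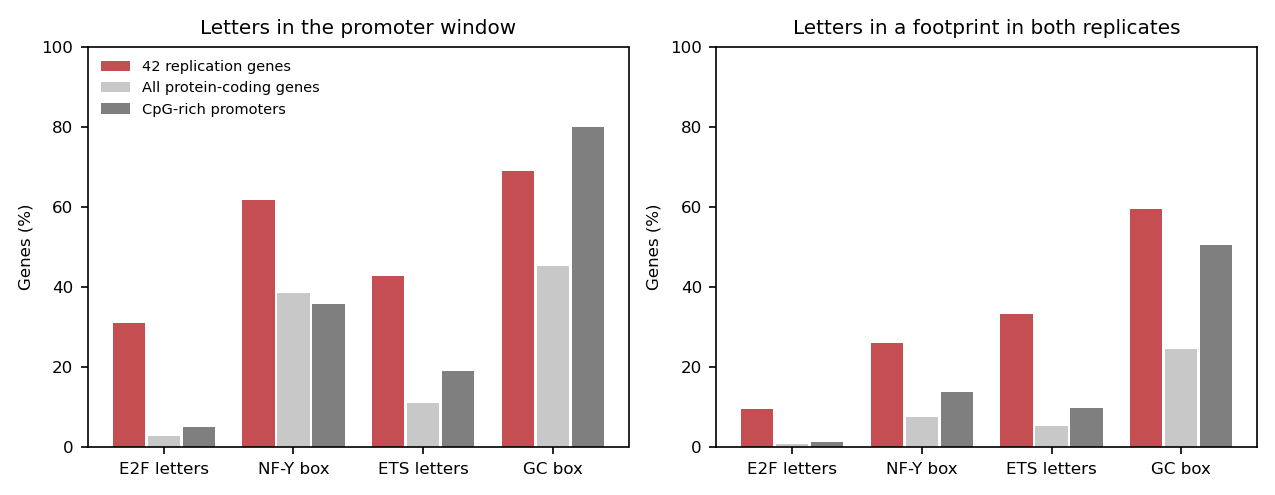
Percentage of genes (y axis) whose window from 250 bp before to 50 bp after the main start holds each kind of letters (left) and holds them within a footprint in both replicates (right), for the 42 replication genes, all protein-coding genes and CpG-rich promoters. The E2F letters occur in 31.0%, 2.89% and 5.15% of the genes, and GC boxes in 69.0%, 45.3% and 80.1%.

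All members had footprints within 500 bp of a start in each replicate, against 60.7% and 56.5% of all genes. Their median was 10 in replicate 1 and 8 in replicate 2, close to the 9 and 8 of all genes with a promoter peak and the 10 and 9 of CpG-rich ones. In all they had 471 and 387 separate footprints, with a median width of 12 bp. Of these 59.9% and 76.0% were overlapped by a footprint of the other replicate, against 53.5% and 67.3% at all genes with a promoter peak in both. A called peak was touched by 69.0% and 77.0% of the members' footprints. The most footprints lay at Mcm7 (27 and 20), Lig1 (22 and 17), Orc4 (17 in each), Cdc45 (21 and 11) and Mcm4 (13 and 17). These 5 also have a start of another gene in their window. Windows around all annotated starts were searched, so genes with spread starts had a longer stretch searched. Around the main starts alone the members had 392 and 344 footprints. The fewest lay at Pola1 (4 and 5) and Pold2 (5 in each). As a description over genes that share a library, the Spearman rho over the 42 genes between height and footprints was 0.10 and 0.336, against 0.45 and 0.579 over the 12547 genes with a promoter peak in both. All footprints of replicate 1 were overlapped in replicate 2 at Gins2 (14 of 14), Rfc5 (9 of 9) and Cdc6 (7 of 7). This also held at Mcm5 and Rfc2 (6 of 6 each) and Pold2 (5 of 5).

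**Figure D4:**
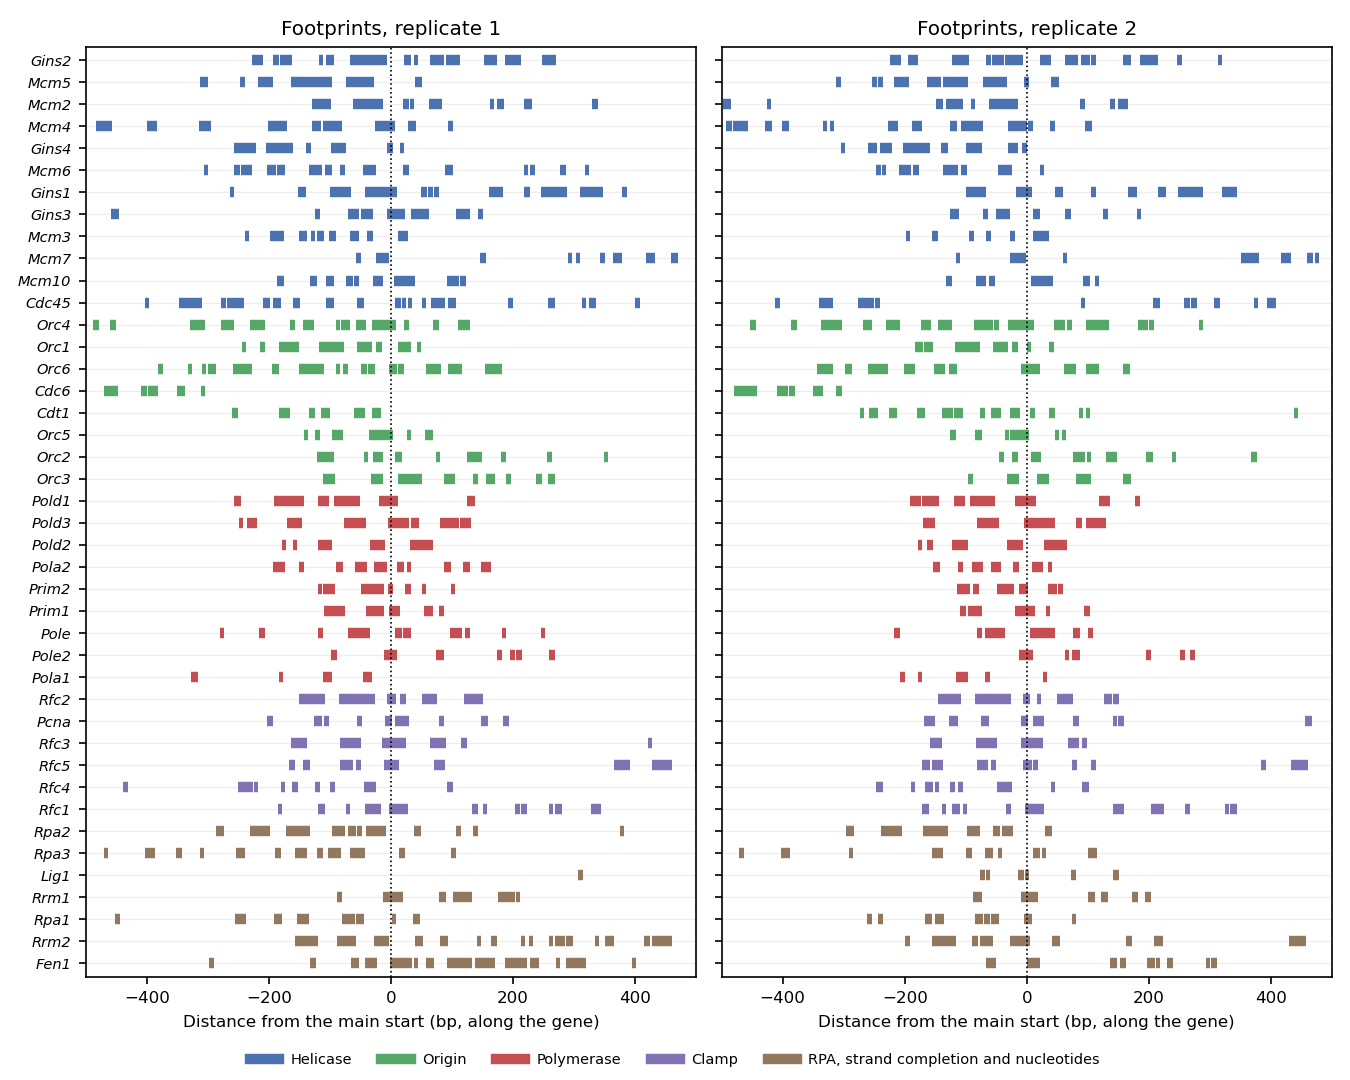
Footprints within 500 bp of the main start of each gene (x axis, distance in bp along the gene) in replicates 1 and 2, with genes grouped by role and ordered by promoter height. Bars are footprints at their true width; Lig1, whose highest peak lies 1448 bp or more after the main start, has few here, and those of Cdc6 lie over 300 bp before the start.

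A start of another gene lay close to a start of many replication genes. In 13 of 42 members the window of 500 bp held a start of another protein-coding gene, against 13.2% of all genes and 20.5% of genes with a promoter peak in both. Of the 6 ORC genes 4 did so: Orc1 with Prpf38a (87 bp), Orc3 with Rars2 (13 bp), Orc4 with Mbd5 (26 bp) and Orc6 with Vps35 (11 bp). The others were Mcm4 with Prkdc (466 bp), Mcm7 with Ap4m1 (160 bp), Cdc45 with Ufd1 (140 bp), Pole with Pxmp2 (120 bp) and Pole2 with Gm49384 (190 bp). Next came Rpa1 with Smyd4 (109 bp), Rpa3 with Umad1 and Gm45062 (115 bp), Lig1 with Zswim9 (105 bp) and Fen1 with Tmem258 (49 bp). No clamp gene did. Diverging starts within 1 kb were found for 13 members, Gins1 with Abhd12 (659 bp) taking the place of Pole2, against 11% of all genes. Peaks of the 13 members with another start in the window were not assigned to either gene. Their heights had medians of 10.9 and 7.65, against 12.4 and 8.71 in the other 29 members, and their footprints medians of 16 and 10 against 9 and 7. The footprint counts were not corrected for the length searched around all starts of a gene.

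Distal peaks, over 1 kb from any protein-coding start and within 50 kb of a start of the member, were about as frequent as at all genes. At least 1 was found at 41 members in replicate 1 and 34 in replicate 2, against 88.1% and 74.6% of all genes. The mean was 7.45 and 3.57 per member (5.51 ± 2.74, SD, n = 2), against 7.11 and 3.45 over all genes. Over CpG-rich genes it was higher, at 9.08 and 4.33. There were 313 and 150 separate peaks, of which 133 in each replicate were overlapped in the other. The nearest protein-coding start was that of a member for only 110 and 46 of them. Cdc6 had the most (28 and 18), then, in the order of peaks overlapped in the other replicate, Gins2 (20 and 17), Pold1 (14 and 13), Mcm2 (17 and 11) and Cdt1 (16 and 9), while Mcm4 had none in either replicate.

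Several of the highest distal peaks lay in neighbouring genes. The highest of replicate 1, at chromosome 6, 8275201 to 8275400, lay 16028 bp from Rpa3 in the gene Umad1, at 17.5 and 7.36 times the median, which exceeded the promoter peak of Rpa3 in replicate 1 and not in replicate 2. A peak at chromosome 5, 117358861 to 117359020, lay 21196 bp from Rfc5 in Wsb2, at 11.9 and 6.10. Near Cdc6 the highest was in Rara, a retinoic acid receptor gene, at chromosome 11, 98942141 to 98942360 in replicate 1, at 11.4 and 7.48. At Gins2 the 3 highest shared peaks lay within Gse1 (8.34 and 8.72 for the highest of them, which was the highest distal peak of replicate 2). Within a member's own gene, Mcm2 held a peak 5175 bp from its nearest start (chromosome 6, 88886481 to 88886740) at 5.05 and 6.34, and Cdc6 held one 1590 bp from its nearest start (chromosome 11, 98909741 to 98909940) at 6.32 and 3.35. Which gene a distal peak acts on was not measured.

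**Figure D5:**
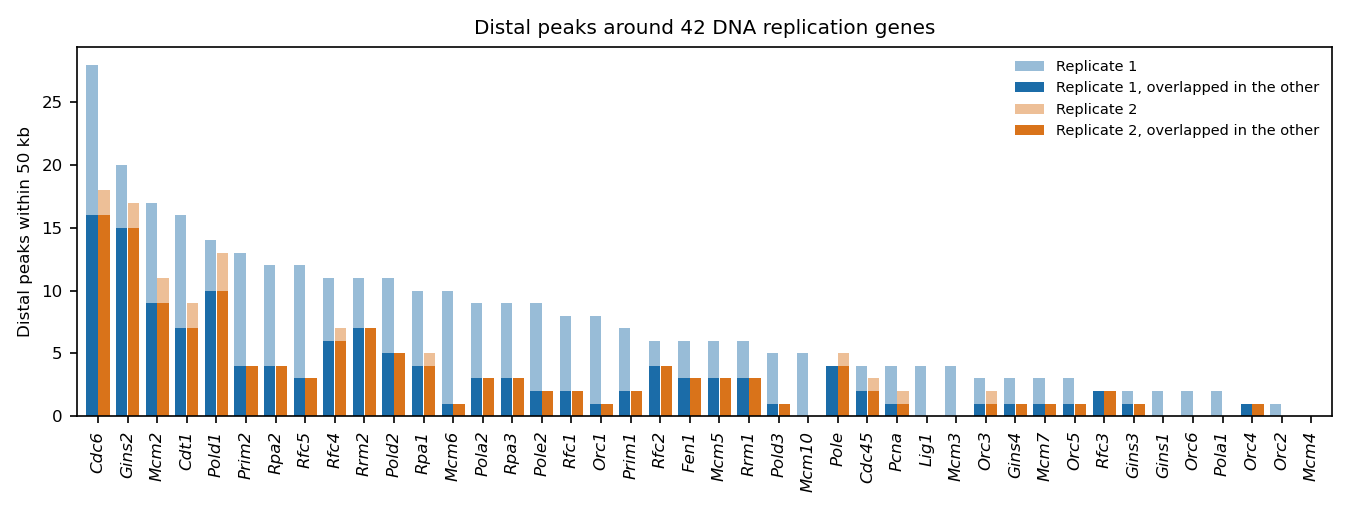
Number of distal peaks within 50 kb of each of the 42 genes (y axis) in replicate 1 (blue) and replicate 2 (orange), with the part overlapped by a peak of the other replicate in full colour. Cdc6 has 28 and 18 and Gins2 20 and 17, while Mcm4 has none.

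Other genes of DNA replication had open promoters as well. The share with a promoter peak in both replicates was 57.2% over all genes and 88.3% over CpG-rich genes. In the lists below, 13 of 14 regulators and 9 of 15 further subunits were CpG-rich. So were 7 of 9 nucleotide supply genes and 15 of 17 genes of the E2F, retinoblastoma and cyclin families. All 14 regulators of origin firing and fork progression had a promoter peak in both replicates, with medians of 9.91 and 7.85, from Ticrr (18.7 and 13.3), which acts in origin firing, to Mtbp (6.12 and 2.99). All 15 further subunits and processing factors had one, with medians of 7.56 and 4.57, from the alternative clamp loader gene Chtf18 (19.1 and 14.2) to Mcmdc2 (0.361 and 0.490), a meiotic MCM relative. The 9 nucleotide supply genes had medians of 9.19 and 6.61, from Dck, deoxycytidine kinase (17.9 and 20.5), to Samhd1, which degrades deoxynucleotides (1.06 and 1.34). The 17 genes of the E2F, retinoblastoma and cyclin families had medians of 8.06 and 5.71, from Ccne1, cyclin E1 (23.3 and 15.6), to Rb1 (3.46 and 2.39) by the mean of the replicates, while in replicate 2 alone E2f3 was highest (17.0) and E2f6 lowest (2.02). Each of these 4 medians lay under that of the 42 replication genes and, for 3 of the lists, above the median gene in both replicates, with the further subunits under it in replicate 2.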

How the data were processed

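DNase-seq peaks, footprints and, per base, a false discovery rate (FDR) for cutting were deposited for each library, on mm10 per the labels. Peak heights are the deposited signal, and the authors' footprint and FDR lists hold values of the p-value kind (a constant 0.01 for footprints, at most 0.05 for cut rates). The sources used here do not give callers, thresholds, the scaling of heights or any correction of footprints for the sequence preference of DNase I. Mapping of CAST/EiJ reads to the reference was not measured.

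The larger of each library's 2 peak files was used. A promoter height is that of the highest peak within 500 bp of any start (GENCODE M21), over the library's median peak height. Letters were searched in GRCm38.p6 sequence of the GENCODE main start, and RefSeq promoter sequences (GRCm38.p6) served as an alternative, with 35 members matched. Python 3.11.15, numpy 2.4.6 and samtools 1.23.1 were used, and the counting was tested on simulated data. With 1 group of 2 replicates no test was run. Members, role groups and lists were chosen with earlier results of these data known. Genes named in full were the 2 highest and 2 lowest of each role, the 5 with the largest replicate ratio, the most distal peaks or the most footprints, and those sharing a window; of other lists, the highest and lowest. Genes outside this rule were named after their values were seen.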

Additional observations from a re-analysis of the deposited data

How the results depend on the processing

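The count of 42 open promoters held under each alternative run. In all 10 settings of the role groups, the main run among them, the helicase median was highest and the polymerase median lowest of the 4 named groups. Several settings could not change this order. The stricter file, equal numbers of peaks and the median promoter changed only each library's divisor at the members. Settings with 1 replicate repeated values given above and could not lower the count of 42. Of 86 alternative values, 59 moved by less than the spread between replicates (or, for counts, less than 1.5 times) and 27 moved by more. With 2 replicates, leaving 1 out cannot move a mean beyond their SD, and dividing by the median promoter changes the unit. The tally is therefore no measure of how stable the results are. Multiples of the median depend on which peaks set the median. In the stricter peak file the medians were 6.74 for all members, 7.66 for the helicase, 7.06 for the origin, 6.19 for the clamp, 6.75 for the remaining genes and 3.46 for the polymerases. With equal numbers of peaks (69798) they were 7.09, 8.15, 7.72, 6.60, 7.13 and 3.49. Over the median promoter of all genes they were 1.77, 2.02, 1.89, 1.64 and 1.78, and 0.895 for the polymerases. Summed promoter peaks gave 17.5 for the helicase, 12.7 for the origin and 12.3 for the clamp. Footprints inside peaks alone had a median of 6.25 per member, as a mean over replicates. Distal peaks per member were 1.86 with each peak given to its nearest start and 10.0 within 100 kb. The E2F letters occurred in 20 members with 7 letters (TTNNCGC; 12.1% of genes), 21 within 500 bp on either side (7.28% of genes), and, chosen after seeing the data, 22 at any start. In a footprint in both replicates they occurred in 7 members with the wider window, and the count was 8 without replicate 1 and 5 without replicate 2. It was 6 with 7 letters (3.22% of genes), 3 without the 5 bp margin and 3 with footprints inside peaks alone. No paired analysis was possible because the samples form 1 group.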

Other observations

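Orc5 and Pola2 had the same deposited heights, 5.26 in replicate 1 and 4.30 in replicate 2, at separate peaks on chromosomes 5 and 19. Fen1 had its highest peak 199 bp after the main start in replicate 1 and at -51.5 bp from it in replicate 2, so its ratio of 2.40 between replicates compares neighbouring peaks.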
